A study of Homo sapiens with 36 samples.

Results

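The genes described here are the D-type cyclins CCND1, CCND2 and CCND3, their kinases CDK4 and CDK6, the kinase inhibitors CDKN1B, CDKN1C, CDKN2C and CDKN2D, and the kinases' substrate RB1. They were chosen by name, through the Ensembl gene identifiers of the count table, and the rule used no measured value. All 10 were found among the 61544 genes of the table, and all 10 passed the filter on low counts that left 20767 genes for testing. Polyadenylated RNA was sequenced from MIAPACA-2, an established human pancreatic carcinoma line, carrying doxycycline-inducible Cas9 and 1 of 3 guides: a non-targeting control guide (NTC), a guide against PELO, or a guide against HBS1L. Each line was grown without doxycycline or with 2 µg/mL of it (dox) and taken at 48 or 96 h, so that 12 groups of 3 libraries, 36 in all, were compared. All groups share the parental line, the inducible Cas9 and medium with serum free of tetracycline, and the sources used here do not give whether a line was 1 clone or a pool. The series asks what loss of PELO or HBS1L does where the SKI complex is destabilised. PELO and HBS1L rescue stalled ribosomes, and the SKI complex hands the affected messages to the exosome for decay.

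In the G1 phase of the cell cycle, D cyclins are made in response to growth signals and switch on CDK4 and CDK6, which phosphorylate RB1 and so free E2F factors to transcribe the genes of DNA synthesis. The INK4 inhibitors (CDKN2A to CDKN2D) bind CDK4 and CDK6 themselves, while the CIP/KIP inhibitors (CDKN1A to CDKN1C) bind cyclin-kinase complexes and block CDK2 above all. In pancreatic carcinoma, CDKN2A is commonly lost.

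Library totals were 45356024 to 66704841 counts, except 107436235 in replicate 2 of the PELO line with dox at 96 h. The HBS1L guide lowered HBS1L message from 105 ± 1.75 to 36.2 ± 0.899 CPM (counts scaled to library size, mean ± SD, n = 3) at 48 h, and at 96 h from 111 ± 1.98 to 33.8 ± 0.332 CPM, in its own line. Without dox that line already held less HBS1L message than the untreated control line, at 123 ± 1.30 CPM (48 h) and 143 ± 2.06 CPM (96 h). The log2 differences were -0.23 ± 0.03 (SE, edgeR adjusted p = 6.46e-07) and -0.37 ± 0.03 (edgeR adjusted p = 1.63e-09). PELO message in the PELO line was 25.2 ± 1.33 CPM without and 20.7 ± 0.404 CPM with dox at 48 h, and at 96 h 29.1 ± 1.99 and 28.3 ± 1.46 CPM, so this message is no check of the guide. The line expressed VIM, KRT8 and KRT18, while CDH1 and EPCAM, the defining epithelial markers, had at most 3 counts in any library, as did the leukocyte markers PTPRC and CD3E, the endothelial markers PECAM1 and KDR, and the fibroblast markers DCN and LUM. Other markers of these lists were expressed, with group means of up to 8.29 CPM for CD14, 37.5 CPM for CDH5 and 242 CPM for COL1A2. The libraries at 48 and 96 h have 2 separate ranges of library numbers in the labels, and the effects of time and of such a split cannot be told apart. The labels do not say that replicates were separate cultures, so the p-values reflect the spread between libraries, which may be technical. In bulk RNA, fewer cells of a kind (for example in 1 phase of the cycle) and less message per cell cannot be told apart.

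Levels of the 10 messages lay far apart. Averaged over the 36 libraries and divided by exon length, CDK4 stood at 53.9 CPM per kb, CCND1 at 43.5, CDKN1B at 36.4, RB1 at 9.89, CDKN2D at 7.78, CDKN2C at 5.15, CCND3 at 4.85, CDKN1C at 2.13, CDK6 at 1.13 and CCND2 at 0.635 CPM per kb. CCND1, CDK4 and CDKN1B, the abundant members of their classes, differed by at most 1.37-fold between their highest and lowest group means. CCND2, the rarest of the 10 per kb, had the widest range, 14.0-fold between its highest and its lowest group mean. In the order of the 12 group means, the libraries of neighbouring groups overlapped in 6 of 11 pairs for CCND2 and CDKN2C, 7 for CCND1, 8 for CCND3, CDKN1B, CDKN1C and RB1, and 10 for CDK4, CDK6 and CDKN2D. The PELO line with dox at 96 h lay alone at the top of that order for CCND2, followed by the same line with dox at 48 h, which was also apart from the rest.

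**Figure D1:**
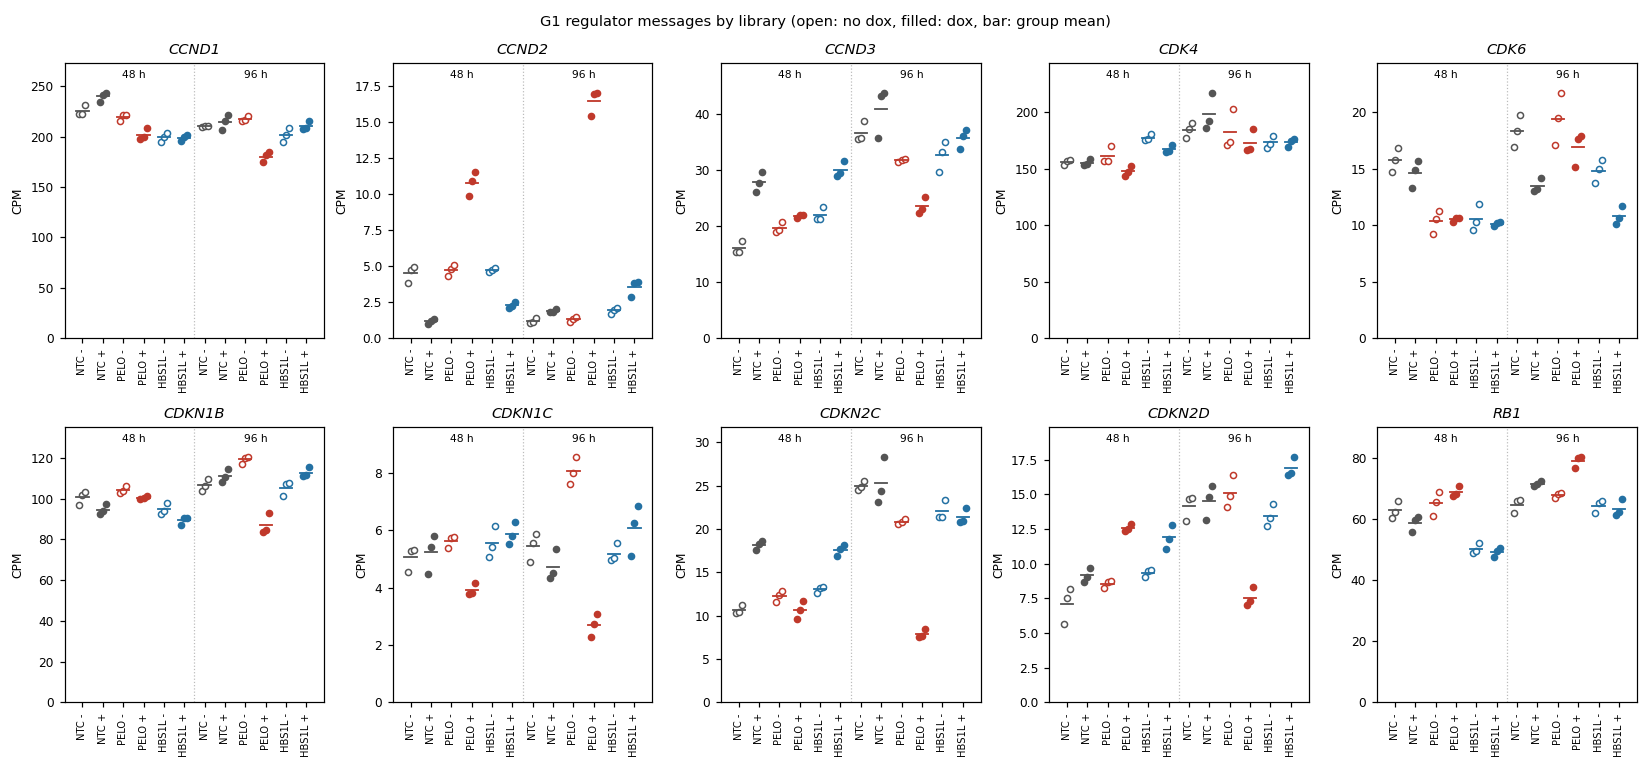
Level of each of the 10 messages (vertical axis, CPM) in every library of the 12 groups (horizontal axis), with open points for no dox, filled points for dox and a bar for the group mean of 3 libraries. CCND2 is highest in the PELO line with dox, at 15.4 to 17.0 CPM at 96 h, where CDKN1C, CDKN2C and CDKN1B have their lowest group means.

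Among the D cyclins, CCND2 rose with dox in the PELO line at both times. CCND2 (ENSG00000118971.9, chromosome 12, 4273772 to 4305350, + strand of GRCh38) encodes cyclin D2. In the PELO line it read 5.07, 4.78 and 4.29 CPM without dox and 9.88, 11.5 and 10.9 CPM with it at 48 h. At 96 h it read 1.34, 1.47 and 1.16 CPM without dox and 15.4, 17.0 and 16.9 CPM with dox, a 12.5-fold rise. No dox library of that line overlapped a no-dox library at either time. The log2 change was 1.19 ± 0.10 (SE; edgeR quasi-likelihood test, adjusted p = 1.31e-12) for 48 h and 3.64 ± 0.11 (adjusted p = 2.54e-25) for 96 h.

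The control line moved CCND2 as well, in opposite directions at the 2 times. Control libraries held 4.72, 4.97 and 3.82 CPM without dox and 1.00, 1.18 and 1.35 CPM with dox at 48 h, a log2 change of -1.94 ± 0.13 (edgeR adjusted p = 1.45e-14). At 96 h they held 1.03, 1.15 and 1.42 CPM without and 1.83, 1.85 and 2.03 CPM with dox, a change of 0.67 ± 0.15 (edgeR adjusted p = 0.0036). Beyond the control line, which here means after subtracting the NTC response at the same time, the PELO line changed CCND2 by 3.14 ± 0.17 (edgeR adjusted p = 5.71e-18) at 48 h and 2.97 ± 0.20 (edgeR adjusted p = 1.79e-15) at 96 h. Part of the 48 h difference is thus the fall in the control line. With the dox libraries of the 2 lines set directly against each other, the difference was 3.19 at 48 h and 3.11 at 96 h. Untreated cells also had other levels of CCND2 at the 2 times, with means in the control line of 4.50 ± 0.605 CPM (48 h) and 1.2 ± 0.199 CPM (96 h).

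In the HBS1L line CCND2 followed the direction of the control line at each time. It read 4.59, 4.84 and 4.73 CPM without and 2.22, 2.51 and 2.13 CPM with dox at 48 h, and 1.98, 2.11 and 1.70 CPM without and 2.87, 3.81 and 3.89 CPM with dox at 96 h. The difference from the control response was 0.89 ± 0.18 (edgeR adjusted p = 0.00208) at 48 h and 0.20 ± 0.20 (edgeR adjusted p = 0.606) at 96 h. The PELO response exceeded the HBS1L response by 2.24 ± 0.15 (edgeR adjusted p = 9.07e-15) at 48 h and 2.78 ± 0.18 (edgeR adjusted p = 8.47e-16) at 96 h.

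CCND1 (ENSG00000110092.4, chromosome 11, 69641087 to 69654474, + strand), cyclin D1, went slightly down in the PELO line. Its libraries read 222, 221 and 215 CPM without dox and 208, 199 and 197 CPM with dox at 48 h, and 215, 217 and 220.1 CPM without and 174, 184 and 182 CPM with dox at 96 h. These sets did not overlap, and the log2 changes were -0.12 ± 0.04 (edgeR adjusted p = 0.00402) and -0.27 ± 0.04 (edgeR adjusted p = 1.76e-08). Beyond the control line the differences were -0.21 ± 0.05 (edgeR adjusted p = 0.000492) and -0.30 ± 0.05 (edgeR adjusted p = 2.76e-06). Part of the 48 h difference is a rise in the control line, of 0.09 ± 0.04 (edgeR adjusted p = 0.0409). The call of that rise held in 4 of 12 alternatives (adjusted p up to 0.181). In the HBS1L line the differences beyond control were -0.09 ± 0.05 and 0.03 ± 0.05 and neither passed the test.

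CCND3 (ENSG00000112576.13, chromosome 6, 41934933 to 42050357, - strand), cyclin D3, rose with dox in the other two lines at 48 h but not past the test in the PELO line. Control libraries went from 17.3, 15.3 and 15.4 CPM to 27.6, 26.1 and 29.6 CPM (log2 change 0.79 ± 0.07, edgeR adjusted p = 1.65e-11), and HBS1L libraries from 21.3, 21.2 and 23.3 CPM to 28.97, 29.5 and 31.5 CPM (0.45 ± 0.07, adjusted p = 3.67e-06). PELO libraries read 19.3, 18.9 and 20.7 CPM without and 21.998, 22.01 and 21.4 CPM with dox (0.15 ± 0.07, edgeR adjusted p = 0.0741). At 96 h CCND3 was lower with dox in the PELO line, at 31.9, 31.8 and 31.4 CPM without and 25.1, 23.0 and 22.3 CPM with dox (-0.43 ± 0.07, edgeR adjusted p = 6e-07). Between 48 and 96 h its mean in that line went from 19.6 to 31.7 CPM without dox and from 21.8 to 23.5 CPM with dox. Beyond the control line the PELO difference was -0.64 ± 0.10 (edgeR adjusted p = 1.37e-06) at 48 h and -0.59 ± 0.09 (edgeR adjusted p = 1.43e-06) at 96 h.

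The cyclin D message pool differed in make-up and in size with dox, and not in the PELO line alone. Per kb of exon, CCND1 made up 85.4 to 93.2% of the summed D cyclin message in every group. CCND2 rose from 1.33 ± 0.0952% to 3.20 ± 0.309% of that sum in the PELO line at 48 h and from 0.365 ± 0.0454% to 5.27 ± 0.182% at 96 h. The sum itself was 50.6 ± 0.483 CPM per kb without and 43.7 ± 0.979 CPM per kb with dox at 96 h in the PELO line, against 49.99 ± 0.448 and 51.8 ± 1.59 CPM per kb in the control line.

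Exons of CCND1 and CCND2 overlap those of other expressed genes, and the sources do not say whether counting used strand. ENSG00000285901, a protein-coding gene on the same strand, covers 13.8% of the exonic length of CCND2. It went from 12.5 ± 0.337 CPM without dox to 28.0 ± 0.842 CPM with dox at 96 h in the PELO line. CCND2 went from 1.32 ± 0.156 to 16.5 ± 0.899 CPM there. LTO1, on the opposite strand, covers 10.3% of CCND1 and went from 14.1 ± 2.00 to 49.0 ± 1.46 CPM there. CCND1 went from 217 ± 2.62 to 180 ± 5.16 CPM. Their part in the CCND1 and CCND2 counts was not tested.

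**Figure D2:**
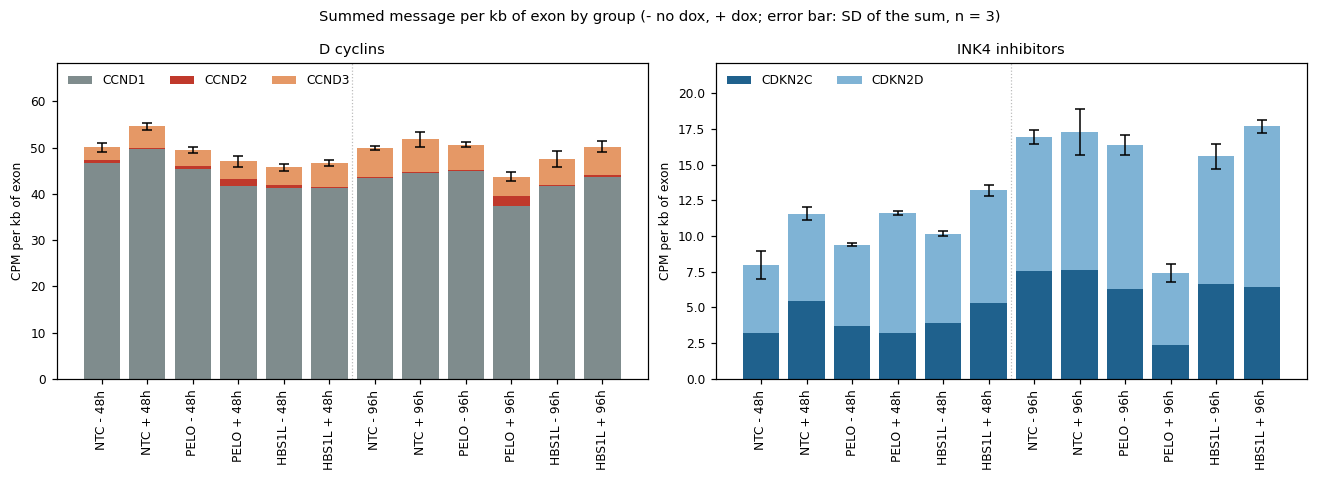
Summed message per kb of exon (vertical axis, CPM per kb, from 0) of the D cyclins and of the expressed INK4 inhibitors in the 12 groups, stacked by gene, with the SD of the sum over 3 libraries as error bar. CCND1 makes up most of the D cyclin bar in every group, and the INK4 bar of the PELO line at 96 h is 16.4 CPM per kb without and 7.42 CPM per kb with dox.

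The 2 kinases differed less. CDK4 (ENSG00000135446.17, chromosome 12, 57747727 to 57756013, - strand), the more abundant of the pair here, read 157, 157 and 169.5 CPM without and 143, 147 and 153 CPM with dox at 48 h in the PELO line, and 170.4, 173 and 202 CPM without and 185, 167 and 168 CPM with dox at 96 h. The log2 changes were -0.13 ± 0.05 (edgeR adjusted p = 0.0457) and -0.07 ± 0.05 (edgeR adjusted p = 0.212), and the 96 h libraries overlapped. Beyond control the difference was -0.12 ± 0.07 (edgeR adjusted p = 0.19) at 48 h and -0.18 ± 0.07 (edgeR adjusted p = 0.0375) at 96 h. Both calls depended on the method and on single libraries. DESeq2 did not call the 48 h change (-0.11, adjusted p = 0.0902). The 96 h call was lost with no filter (edgeR adjusted p = 0.0644) and with the compared groups alone in the fit (edgeR adjusted p = 0.113). The 48 h call was lost without replicate 3 of the untreated PELO line (-0.09, edgeR adjusted p = 0.227) or without replicate 1 or 2 of the PELO line with dox (adjusted p = 0.147 and 0.0977). The 96 h call was lost without replicate 3 of the untreated PELO line (-0.12, edgeR adjusted p = 0.146), and likewise without replicate 1 or 2 of the untreated control line, replicate 3 of the control line with dox, or replicate 2 or 3 of the PELO line with dox (adjusted p from 0.0559 to 0.123). TSPAN31, on the opposite strand, covers 43.2% of the exonic length of CDK4 at 3.42 to 4.84 CPM over the group means.

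CDK6 (ENSG00000105810.10, chromosome 7, 92604921 to 92836594, - strand), the second cyclin D kinase, fell with dox at 96 h in the lines with the control and HBS1L guides. Control libraries read 18.3, 16.9 and 19.8 CPM without and 14.2, 13.2 and 13 CPM with dox, and HBS1L libraries 14.998, 15.7 and 13.8 CPM without and 10.7, 10.1 and 11.7 CPM with dox. Each log2 change was -0.45, with an SE of 0.08 (edgeR adjusted p = 0.000646) and 0.09 (adjusted p = 0.000191). In the PELO line, 21.8, 19.5 and 17.1 CPM stood against 15.2, 17.9 and 17.7 CPM, with a change of -0.19 ± 0.08 (edgeR adjusted p = 0.0361) that no longer passed without replicate 1 of the untreated libraries (-0.12, adjusted p = 0.222) or of the dox libraries (-0.14, adjusted p = 0.146). The PELO response did not pass the test against the control response at 48 h (0.13 ± 0.12) or 96 h (0.25 ± 0.12, edgeR adjusted p = 0.0649). CDK6 per kb was at most 2.72% of the summed message of the 2 kinases in any group.

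The 4 inhibitors among the 10 all fell at 96 h in the PELO line with dox, to fitted levels of 0.496 (CDKN2D), 0.378 (CDKN2C) and 0.334 (CDKN1C) times those without dox, with a smaller fall of CDKN1B. CDKN2C (ENSG00000123080.12, chromosome 1, 50960745 to 50974633, + strand) encodes an INK4 protein that binds CDK6 and CDK4, and CDKN2D (ENSG00000129355.7, chromosome 19, 10566462 to 10569059, - strand) encodes another. Promoter sequence from RefSeq (GRCh38.p14), covering 250 bases before a start site, was on hand for 7 of the 10 genes and not for CCND1, CCND2 or CDKN1C. The sequences of the INK4 pair and of CDKN1B are shown because these messages fell together at 96 h, and that of CDK4 because it stayed nearly level. On both strands, 6 motifs were searched, none a part of another: E2F (TTTCCCGC, TTTGGCGC, TTTGCCGC or TTTCGCGC), E-box (CACGTG), CRE (TGACGTCA), AP-1 (TGANTCA), a composite site of ATF4 (TGATGCAA) and forkhead (GTAAACA). Capitals mark a match.
CDKN2C, first start, chr1:50960495-50960744, + strand: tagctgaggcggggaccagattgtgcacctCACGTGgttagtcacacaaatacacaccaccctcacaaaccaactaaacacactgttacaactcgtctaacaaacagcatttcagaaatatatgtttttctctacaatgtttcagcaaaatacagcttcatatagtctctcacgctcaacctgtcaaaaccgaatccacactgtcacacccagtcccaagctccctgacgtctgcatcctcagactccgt
CDKN2C, last start, chr1:50969995-50970244, + strand: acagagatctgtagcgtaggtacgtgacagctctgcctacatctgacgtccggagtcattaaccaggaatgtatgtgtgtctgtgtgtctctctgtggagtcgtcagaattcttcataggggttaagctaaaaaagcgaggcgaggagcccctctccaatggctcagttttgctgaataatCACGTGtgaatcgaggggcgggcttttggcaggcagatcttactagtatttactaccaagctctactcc
CDKN2D, chr19:10568980-10569229, - strand: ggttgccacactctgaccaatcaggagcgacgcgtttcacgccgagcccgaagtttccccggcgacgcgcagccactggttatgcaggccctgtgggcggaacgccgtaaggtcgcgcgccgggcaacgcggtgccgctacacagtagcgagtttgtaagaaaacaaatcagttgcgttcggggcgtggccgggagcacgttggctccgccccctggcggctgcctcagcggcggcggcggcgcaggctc
CDKN1B, chr12:12717118-12717367, + strand: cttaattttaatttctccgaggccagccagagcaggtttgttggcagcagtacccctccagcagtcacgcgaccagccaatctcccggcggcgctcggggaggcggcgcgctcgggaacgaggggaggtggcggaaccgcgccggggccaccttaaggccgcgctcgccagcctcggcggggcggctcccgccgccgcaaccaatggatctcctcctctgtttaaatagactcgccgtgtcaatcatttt
CDK4, chr12:57752311-57752560, - strand: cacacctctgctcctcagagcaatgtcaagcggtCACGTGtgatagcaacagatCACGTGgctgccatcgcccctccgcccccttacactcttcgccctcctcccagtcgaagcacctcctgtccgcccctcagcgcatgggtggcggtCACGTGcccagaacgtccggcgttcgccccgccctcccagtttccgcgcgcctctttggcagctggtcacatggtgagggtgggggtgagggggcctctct

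An E-box was present 220 bases before the first start of CDKN2C, 69 bases before its last start, and 216, 196 and 101 bases before the start of CDK4. Of 35116 RefSeq promoter windows of this length, 6.34% held it. CDKN2D and CDKN1B held no match to any of the 6 motifs in these windows, and E2F motifs of these letters stood in 2.79% of all windows. The window before the middle start of CDKN2C (chr1:50968456-50968705) held no match to any of the 6. RB1 held 1 AP-1 match, 210 bases before a start site that lies inside the gene, a motif found in 6.57% of windows.

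CDKN2C and CDKN2D went the same way in the PELO line at 96 h. CDKN2C libraries read 20.5, 20.8 and 21.2 CPM without dox and 8.51, 7.67 and 7.56 CPM with dox, a log2 change of -1.40 ± 0.07 (edgeR adjusted p = 3.7e-20). CDKN2D libraries read 16.4, 14.9 and 14.1 CPM without and 8.35, 6.99 and 7.34 CPM with dox, a change of -1.01 ± 0.09 (edgeR adjusted p = 4.85e-13). Control libraries overlapped for both genes, at 24.5, 24.8 and 25.6 against 24.4, 23.1 and 28.3 CPM for CDKN2C and at 14.7, 14.8 and 13.1 against 14.8, 13.1 and 15.6 CPM for CDKN2D. Beyond control the PELO differences were -1.42 ± 0.09 (edgeR adjusted p = 5.86e-16) for CDKN2C and -1.05 ± 0.12 (edgeR adjusted p = 1.29e-09) for CDKN2D. The summed INK4 message per kb went from 16.4 ± 0.684 to 7.42 ± 0.618 CPM per kb in the PELO line, from 16.9 ± 0.492 to 17.3 ± 1.61 CPM per kb in the control line and from 15.6 ± 0.866 to 17.7 ± 0.466 CPM per kb in the HBS1L line. Untreated levels differed between the times. In the untreated PELO line CDKN2C had means of 12.3 CPM (48 h) and 20.9 CPM (96 h), and CDKN2D of 8.56 and 15.1 CPM. With dox in that line CDKN2C had means of 10.7 and 7.91 CPM, and CDKN2D of 12.6 and 7.56 CPM.

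At 48 h the 2 INK4 genes parted. CDKN2C rose with dox in the control line, from 11.2, 10.4 and 10.5 to 17.6, 18.6 and 18.2 CPM (0.77 ± 0.07, edgeR adjusted p = 9.03e-12), and in the HBS1L line, from 13.4, 13.2 and 12.6 to 17.7, 16.9 and 18.1 CPM (0.43 ± 0.06, adjusted p = 3.34e-06). PELO libraries read 12.4, 12.9 and 11.6 CPM without and 11.7, 9.66 and 10.6 CPM with dox (-0.21 ± 0.07, edgeR adjusted p = 0.0129). That small fall no longer passed without replicate 2 of either PELO group at 48 h (edgeR adjusted p = 0.0721 and 0.12). CDKN2D rose in all 3 lines at 48 h, from 8.65, 8.26 and 8.76 to 12.4, 12.9 and 12.5 CPM in the PELO line (0.56 ± 0.09, edgeR adjusted p = 1.73e-06). Beyond control the differences in the PELO line were -0.97 ± 0.10 (edgeR adjusted p = 1.01e-10) for CDKN2C and 0.20 ± 0.13 (edgeR adjusted p = 0.213) for CDKN2D.

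Of the CIP/KIP inhibitors, CDKN1C had the steeper fall. CDKN1C (ENSG00000129757.15, chromosome 11, 2883213 to 2885773, - strand), an imprinted growth inhibitor, read 7.99, 7.62 and 8.56 CPM without dox and 3.07, 2.73 and 2.28 CPM with dox at 96 h in the PELO line, a log2 change of -1.58 ± 0.11 (edgeR adjusted p = 2.13e-15). Those untreated libraries were the highest of the 12 groups, and the untreated PELO line exceeded the untreated control line by 0.57 ± 0.10 (edgeR adjusted p = 7.85e-05). Set against the dox libraries of the control line, at 4.34, 4.52 and 5.34 CPM, the PELO dox libraries differed by -0.82 (edgeR adjusted p = 9.75e-08), compared with -1.38 ± 0.15 (adjusted p = 9.4e-10) for the difference of responses. At 48 h CDKN1C read 5.39, 5.74 and 5.76 CPM without and 3.78, 4.18 and 3.83 CPM with dox in PELO libraries, and differed from control by -0.57 ± 0.16 (edgeR adjusted p = 0.00284).

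CDKN1B (ENSG00000111276.12, chromosome 12, 12715058 to 12722371, + strand), which holds CDK2 inactive in resting cells, passed the test in 1 of the within-line responses, that of the PELO line at 96 h. It read 120.1, 117 and 121 CPM without and 93.0, 83.7 and 84.4 CPM with dox (-0.46 ± 0.04, edgeR adjusted p = 1e-12), and -0.52 ± 0.06 (adjusted p = 5.14e-10) beyond control. Those untreated libraries had the highest mean of the 12 groups. Set against the dox libraries of the control line, the PELO dox libraries differed by -0.35 (edgeR adjusted p = 6.38e-10). At 48 h CDKN1B read 104, 106 and 103 CPM without and 99.7, 100.1 and 101 CPM with dox, and the difference beyond control was 0.03 ± 0.06 (edgeR adjusted p = 0.661). The PELO response of CDKN1B differed between 96 and 48 h by -0.40 ± 0.06 (edgeR adjusted p = 2.93e-07).

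The third CIP/KIP gene, CDKN1A, a p53 target named here as the remaining member of its family, went the other way. In the PELO line its mean was 5.499 ± 0.459 CPM without and 23.5 ± 0.823 CPM with dox at 48 h, and at 96 h at 3.50 ± 0.951 and 43.3 ± 1.84 CPM. Beyond control it rose by 3.03 ± 0.16 (edgeR adjusted p = 1.04e-16) and 3.40 ± 0.18 (edgeR adjusted p = 3.51e-17), and in the HBS1L line by 1.02 ± 0.19 (edgeR adjusted p = 0.000329) at 96 h. No library held more than 1 count of the INK4 genes CDKN2A or CDKN2B, or more than 2 of their neighbour MTAP, in a line known for the deletion of that locus.

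RB1 (ENSG00000139687.16, chromosome 13, 48303726 to 48599436, + strand), the pocket protein that the cyclin D kinases phosphorylate, rose in the PELO line at 96 h. It read 66.9, 68.2 and 68.4 CPM without and 80.1, 80.4 and 76.6 CPM with dox (0.22 ± 0.04, edgeR adjusted p = 4.3e-05). The control line went the same way, from 65.9, 62.0 and 66.2 CPM to 70.8, 72.5 and 71.5 CPM (0.15 ± 0.04, edgeR adjusted p = 0.0407), and the difference between the 2 responses did not pass the test (0.08 ± 0.06, edgeR adjusted p = 0.329). The call in the control line held in 4 of 12 alternatives, and was lost with no filter, with no TMM scaling, with the compared groups alone and without 5 of the 6 control libraries in turn, replicate 3 without dox being the exception (edgeR adjusted p from 0.062 to 0.248). At 48 h that difference was 0.18 ± 0.06 (edgeR adjusted p = 0.0205), from PELO libraries of 65.6, 68.9 and 61.0 CPM without and 70.7, 67.5 and 68.1 CPM with dox, which overlap. It did not pass when library totals were left unscaled (0.13, edgeR adjusted p = 0.117). The call was also lost, with edgeR adjusted p from 0.0553 to 0.115, when 1 of 4 libraries was left out: replicate 3 of either control group, replicate 3 of the untreated PELO line, or replicate 1 of the PELO line with dox.

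**Figure D3:**
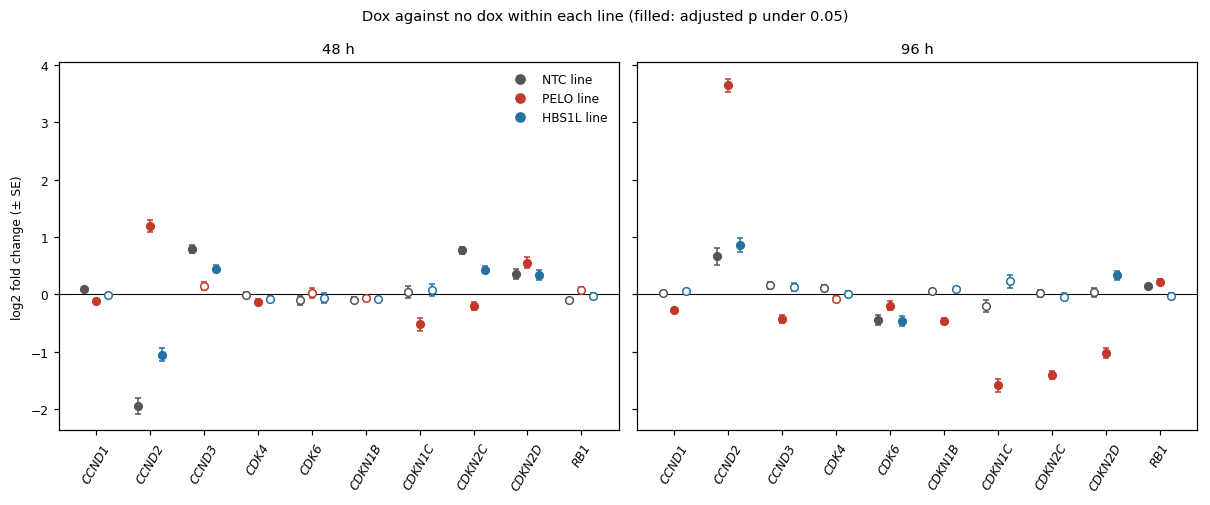
Log2 fold change of dox against no dox within each line (vertical axis, ± SE) for the 10 genes at 48 h and 96 h, filled where the edgeR adjusted p is under 0.05. CCND2 lies at 3.64 in the PELO line at 96 h and CDKN1C at -1.58, while at 96 h the control and HBS1L points for these genes lie between -0.20 and 0.86.

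Counted over the 10 genes, the PELO line had 2 higher and 4 lower with dox at 48 h, where 48.0% of all genes tested were called, and 2 higher and 7 lower at 96 h, where 66.8% were. The control line had 4 higher and 1 lower at 48 h (35.0% of all genes) and 2 higher and 1 lower at 96 h (7.52%). The HBS1L line had 3 higher and 1 lower at 48 h (21.5%) and 2 higher and 1 lower at 96 h (19.9%). In the PELO line these shares are near the share over all genes at 48 h, so the count there says nothing particular about the 10. Beyond control the PELO line had 2 higher and 4 lower at 48 h (47.9% of all genes called) and 1 higher and 7 lower at 96 h (54.8%, with 26.0% of all genes lower). The median log2 difference of the 10 genes was -0.04 at 48 h and -0.41 at 96 h, against medians over all genes of -0.04 and 0.02.

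In the HBS1L line few of the 10 differed from the control response. At 48 h CCND2 was higher and CCND3 and CDKN2C were lower, 3 of 10 where 3.85% of all genes were called. CCND3 differed by -0.34 ± 0.10 (edgeR adjusted p = 0.0371) and CDKN2C by -0.34 ± 0.09 (edgeR adjusted p = 0.0297). Both genes rose with dox in the HBS1L line and in the control line, from levels that in the untreated HBS1L line were already higher by 0.46 for CCND3 (edgeR adjusted p = 3.9e-06) and 0.29 for CDKN2C (edgeR adjusted p = 0.000748). With the dox libraries of the 2 lines set directly against each other, neither passed the test, at 0.11 for CCND3 (edgeR adjusted p = 0.243) and -0.05 for CDKN2C (edgeR adjusted p = 0.654). The call count fell from 3 to 1 when any 1 of 6 libraries was left out: control replicate 2 or 3 without dox, control replicate 3 with dox, HBS1L replicate 1 without dox, or HBS1L replicate 1 or 2 with dox. At 96 h edgeR called 0 of 10 (10.7% of all genes), with 3 at an unadjusted p under 0.05, and DESeq2 called 0.

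**Figure D4:**
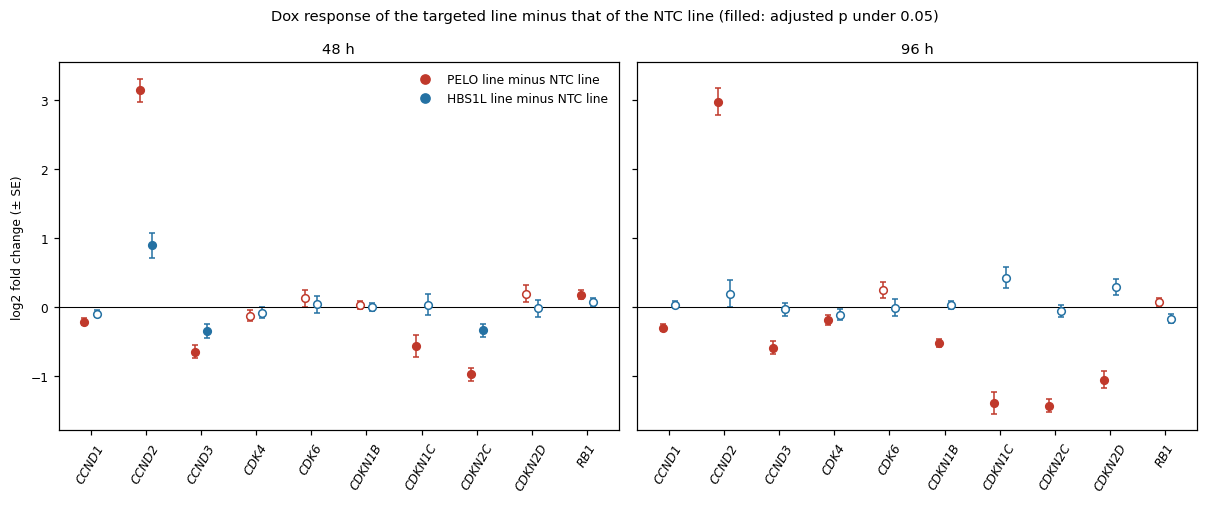
Difference of the dox response between a targeted line and the control line (vertical axis, log2 ± SE) for the 10 genes at 48 h and 96 h, filled where the edgeR adjusted p is under 0.05. In the PELO line CCND2 lies at 3.14 and 2.97 and CDKN2C at -0.97 and -1.42, and at 96 h no HBS1L point is filled.

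Set directly against each other, the responses of the PELO and HBS1L lines differed in 4 of the 10 at 48 h (1 higher and 3 lower in the PELO line, 43.2% of all genes called) and in 8 of the 10 at 96 h (2 higher and 6 lower, 55.5%). At 96 h these were CCND2 and RB1, higher in the PELO line, and CCND1, CCND3, CDKN1B, CDKN1C, CDKN2C and CDKN2D, lower in the PELO line. CDKN1C and CDKN2C moved apart most among the 6, by -1.81 ± 0.15 (edgeR adjusted p = 1.1e-12) and -1.36 ± 0.09 (edgeR adjusted p = 2.28e-15). RB1 differed by 0.24 ± 0.06 (edgeR adjusted p = 0.00137).

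Untreated lines were not alike. At 48 h, 3 of the 10 differed between the untreated PELO line and the untreated control line (11.1% of all genes called) and 7 between the untreated HBS1L line and control (37.9%). CDK6 was lower in both, at 10.6, 11.3 and 9.24 CPM in the PELO line and 11.9, 10.3 and 9.61 CPM in the HBS1L line against 14.7, 15.7 and 16.9 CPM in the control line, with differences of -0.61 ± 0.09 (edgeR adjusted p = 6.38e-06) and -0.57 ± 0.09 (adjusted p = 2.4e-06). CCND3 was higher in both, and CDKN2C in the untreated HBS1L line. In the untreated PELO line CDKN2C differed by 0.20 ± 0.07 (edgeR adjusted p = 0.0477), a call that held in 3 of 12 alternatives and was lost in the others (adjusted p from 0.0513 to 0.192), among them those without replicate 2 or 3 of the control line and without replicate 1 or 2 of the PELO line. RB1 was lower in the untreated HBS1L line, at 52.2, 48.7 and 49.6 CPM against 62.4, 60.3 and 66.0 CPM, a difference of -0.33 ± 0.05 (edgeR adjusted p = 6.31e-07). At 96 h, 4 of the 10 differed in the untreated PELO line (21.8%) and 1 in the untreated HBS1L line (0.135%), namely CCND2 at 0.69 ± 0.15 (edgeR adjusted p = 0.0432). That call held in 6 of 12 alternatives, and was lost with the compared groups alone (edgeR adjusted p = 0.116) and without control replicate 1 or 2 or any 1 of the 3 HBS1L libraries (adjusted p from 0.0615 to 0.248). These comparisons share their control libraries.

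The response to dox at 96 h differed from that at 48 h in 7 of the 10 genes in the control line (26.5% of all genes called), 7 in the PELO line (42.1%) and 5 in the HBS1L line (22.4%). The dox response of CCND2 was higher at 96 h in all 3 lines, and those of CCND3 and CDKN2C were lower. For CCND2 the change of response was 2.61 ± 0.20 in the control line, 2.45 ± 0.16 in the PELO line and 1.91 ± 0.17 in the HBS1L line. That of CDKN1C passed the test in the PELO line, with -1.06 ± 0.16 (edgeR adjusted p = 9.19e-07). These are changes of response and not of level, and untreated levels moved between the times as well. In the untreated control line, CCND3 had means of 16.0 CPM (48 h) and 36.6 CPM (96 h), and CDKN2C of 10.7 and 25.0 CPM.

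Other genes of the pathway were counted in lists, for the PELO line beyond control, where 22.9% of all genes tested were higher and 24.9% lower at 48 h, and 28.7% higher and 26.0% lower at 96 h. Of the late G1 cyclins and kinases, 5 of 11 tested rose and 2 fell at 48 h, and 6 rose and 2 fell at 96 h, with medians of 0.15 and 0.22. CDC25A, the phosphatase that activates CDK2, rose at 96 h by 0.97 ± 0.09 (edgeR adjusted p = 3.64e-11), from 16.8 to 36.01 CPM. CDK2 itself, the kinase of cyclins E and A, fell by 0.57 on the log2 scale, with an SE of 0.06 (edgeR adjusted p = 2.09e-10). CDK7, a subunit of the kinase that activates other CDKs, rose at 48 h by 0.61 ± 0.07 (edgeR adjusted p = 1.65e-09), which combines a fall in the control line from 95.0 to 70.9 CPM with 92.4 and 105 CPM in the PELO line.

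Pocket proteins and E2F factors gave 5 higher and 4 lower of 12 at 48 h and 6 higher and 3 lower at 96 h. RBL2, the pocket protein of resting cells, fell by 0.75 on the log2 scale (SE 0.06, edgeR adjusted p = 3e-12) at 48 h and by 1.01 (SE 0.06, adjusted p = 7.27e-16) at 96 h, from 101 to 48.1 CPM. E2F4, an E2F that works with RBL2, rose by 0.65 ± 0.06 (edgeR adjusted p = 3.29e-11) at 96 h. E2F5 had a difference of 0.69 ± 0.08 (edgeR adjusted p = 1.05e-08) at 48 h, from 12.8 and 14.3 CPM in the PELO line and 14.0 and 9.74 CPM in the control line. The MuvB core, the partner of RBL2 in the DREAM repressor, had 2 of its 5 genes higher and 1 lower at 48 h and 3 higher and 1 lower at 96 h. LIN37 of that core rose by 0.89 ± 0.11 at 48 h (edgeR adjusted p = 8.13e-09) and 1.00 ± 0.10 at 96 h (adjusted p = 2.04e-10). RBBP4, a histone-binding subunit of the same complex, fell by 0.69 at both times (SE 0.05, edgeR adjusted p = 5.15e-14 and 2.53e-14).

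Of 16 genes that govern turnover of cyclin D, cyclin E and the CDKN1B protein, 5 were higher and 6 lower at 48 h, and 6 higher and 6 lower at 96 h. SKP2, which marks the CDKN1B protein for destruction, fell by 1.05 on the log2 scale (SE 0.06, edgeR adjusted p = 9.46e-17) at 96 h, from 58.6 to 29.9 CPM. At 48 h its difference of responses was -1.14 ± 0.06 (edgeR adjusted p = 4.26e-17), from 40.4 and 31.8 CPM in the PELO line, without and with dox, and a rise in the control line from 32.4 to 56.3 CPM. FBXO31, which does so for cyclin D1, had a difference of 0.98 ± 0.06 (edgeR adjusted p = 6.84e-16) at 48 h, from 40.3 and 55.4 CPM in the PELO line and 47.7 and 33.3 CPM in the control line. CUL1, the scaffold of these ligases, rose by 0.53 ± 0.06 (edgeR adjusted p = 5.49e-10) at 96 h. Of 13 tested regulators of transcription of D cyclin and CDKN1B genes, 7 rose and 1 fell at 48 h and 7 rose and 4 fell at 96 h. FOSL1, an AP-1 subunit, rose by 1.29 ± 0.08 (edgeR adjusted p = 2.12e-16) and 1.48 ± 0.08 (adjusted p = 2.19e-18), reaching 237 CPM at 96 h. FOXO4, a forkhead factor, fell by 1.01 (SE 0.11, edgeR adjusted p = 8.8e-10) and 1.19 (SE 0.11, adjusted p = 4.64e-12).

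E2F target genes were lower in the PELO line beyond control, with 13 of 16 lower at 48 h and 12 lower and 3 higher at 96 h. Their median differences were -0.51 and -0.44, against -0.04 and 0.02 over all genes, of which 24.9% and 26.0% were lower. At 48 h this stood on a rise in the control line, where 16 of 16 were higher with dox (median 0.71), while in the PELO line itself 9 were higher and 1 lower. PCNA, the sliding clamp of replication, read 61.6 and 136 CPM in the control line and 96.1 and 102 CPM in the PELO line at 48 h, without and with dox. At 96 h CDC6, which loads the replicative helicase, went against most of the list, with a difference of 0.72 ± 0.09 (edgeR adjusted p = 1.02e-08). It read 42.7 and 74.2 CPM in the PELO line and 66.6 and 70.3 CPM in the control line, without and with dox. Among untreated libraries at 96 h, 14 of the 16 genes were lower in the PELO line than in the control line (21.8% of all genes called). In the HBS1L line 13 of 16 were lower beyond control at 48 h (3.85% of all genes called) and 6 at 96 h (10.7%). With the dox libraries of a targeted line set directly against those of the control line at 48 h, 8 were lower and 2 higher in the PELO line, and 1 was lower and 7 higher in the HBS1L line. That setting called more of all genes in the HBS1L line than the subtraction did, so its counts are not comparable with those beyond control. Without the shares of all genes higher and lower in that setting beside them, these counts say nothing particular about the list.

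Other RNA moved alongside the 10 genes in the PELO line at 96 h. The 6 epithelial markers, chiefly KRT8, KRT18 and KRT19, summed to 3256 to 3610 CPM in the untreated libraries and 1516 to 1859 CPM with dox. Of the others, KRT7 had means of 0.313 ± 0.137 CPM without and 0.533 ± 0.0544 CPM with dox, and CDH1 and EPCAM had at most 3 counts. The sum of 6 fibroblast markers went from 226 to 250 CPM to 30.7 to 34.8 CPM, chiefly COL1A2. The 4 endothelial markers, chiefly CDH5, went from 14.8 to 17.5 CPM to 0.832 to 1.31 CPM, and the 5 leukocyte markers, chiefly CD14, from 3.68 to 5.16 CPM to 0.488 to 0.777 CPM. Their part in the results was not tested, and PECAM1, KDR, DCN and LUM stayed at or below 3 counts in every library.

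Some genes followed the 10 closely over the 12 group means of log2 CPM, a description over groups that share lines, times and libraries. Of 14340 candidates with a mean of at least 1 CPM, FYN was nearest to CCND2 (Pearson r = 0.98), DDX60 to CCND1 (0.92), SLF1 to CCND3 (0.98), RAC1 to CDK4 (0.97) and MAP2 to CDK6 (0.92). CALM3 was nearest to CDKN2C (0.99), CCNB2 to CDKN2D (0.99), CHP1 to CDKN1B (0.92), BTBD2 to CDKN1C (0.95) and ZNF148 to RB1 (0.98). Next came HACE1 for CCND1 (0.91), ENSG00000239467.7 for CCND2 (0.97), ENSG00000280893 for CCND3 (0.98), UBBP4 for CDK4 (0.97) and AK4P3 for CDK6 (0.89). Among inhibitors and RB1 these were APBB1 for CDKN2C (0.98), NEIL3 for CDKN2D (0.97), BRD3 for CDKN1B (0.91), PRSS16 for CDKN1C (0.95) and CLTC for RB1 (0.98).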

How the data were processed

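The submitters' processing notes name DRAGEN, Subread, featureCounts, limma and edgeR with GRCh38.p13, while no version, option, annotation or strand setting is given there. The table the authors deposited holds expected counts (45.6% of values above 0 were not whole) per Ensembl gene, of which 61399 of 61544 matched a symbol. A second table deposited by the authors holds log2 CPM for 17138 genes, the 10 among them, and served as an alternative. Counts were rounded and filtered with filterByExpr (minimum count 10, total 15), keeping at least 99.9% of each library's counts. They were then scaled by TMM and fitted in R 4.3.3 with edgeR 4.0.16 (quasi-likelihood, 1 mean per group, 36 libraries). Benjamini-Hochberg adjustment at 0.05 ran over 20767 genes in each of 19 comparisons. CPM used TMM-scaled totals. Coordinates and exon lengths came from GENCODE 29 on GRCh38. The fit was tested on simulated data. No 2 replicates were identical or within sampling noise of each other.

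The 10 genes were always named. From each list the gene with the smallest adjusted p in each direction in the PELO comparisons beyond control was named, and for each of the 10 the genes nearest to it in group means. A gene that this rule names is not reported here. Genes and lists were chosen with earlier results of these data known. Alternatives were DESeq2 1.42.0, no filter, no TMM, a replicate block, the compared groups alone, limma 3.58.1 on the deposited log2 values, dox libraries alone and leaving out each library.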

Additional observations from a re-analysis of the deposited data

Results flagged for a closer look

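Differences between responses that passed the edgeR test (adjusted p under 0.05) are gathered here as log2 values, each being 1 dox response minus another. Between the PELO and control lines at 48 h, CCND1 differed by -0.21, CCND2 by 3.14, CCND3 by -0.64, CDKN1C by -0.57, CDKN2C by -0.97 and RB1 by 0.18. At 96 h the same contrast gave -0.30 for CCND1, 2.97 for CCND2, -0.59 for CCND3, -0.18 for CDK4, -0.52 for CDKN1B, -1.38 for CDKN1C, -1.42 for CDKN2C and -1.05 for CDKN2D. Between the HBS1L and control lines at 48 h, CCND2 differed by 0.89, CCND3 by -0.34 and CDKN2C by -0.34. The PELO response minus the HBS1L response at 48 h was 2.24 for CCND2, -0.30 for CCND3, -0.60 for CDKN1C and -0.64 for CDKN2C. At 96 h it was -0.33 for CCND1, 2.78 for CCND2, -0.56 for CCND3, -0.55 for CDKN1B, -1.81 for CDKN1C, -1.36 for CDKN2C, -1.34 for CDKN2D and 0.24 for RB1.

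The response at 96 h also differed from that at 48 h within each line, though the 2 times differ in their ranges of library numbers as well. In the control line 7 of the 10 genes differed, where 26.5% of all genes did: CCND2 by 2.61, CCND3 by -0.64, CDK6 by -0.34, CDKN1B by 0.15, CDKN2C by -0.75, CDKN2D by -0.32 and RB1 by 0.24. In the PELO line 7 differed (42.1% of all genes): CCND1 by -0.15, CCND2 by 2.45, CCND3 by -0.59, CDKN1B by -0.40, CDKN1C by -1.06, CDKN2C by -1.20 and CDKN2D by -1.57. In the HBS1L line 5 differed (22.4% of all genes): CCND2 by 1.91, CCND3 by -0.32, CDK6 by -0.39, CDKN1B by 0.18 and CDKN2C by -0.47. CCND2, CCND3 and CDKN2C were called in all 3 lines in the same direction. The calls of CDKN1B held in 7 of 18 alternatives in the control line, 13 of 18 in the HBS1L line and 18 of 18 in the PELO line. CDKN2D in the control line held in 9 of 18, with DESeq2 among the losses (adjusted p = 0.0528). CDK6 held in 12 of 18 in the control line and 15 of 18 in the HBS1L line. CCND1 in the PELO line held in 16 of 18 and CCND3 in the HBS1L line in 17 of 18. The other calls between the times held in 18 of 18.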

How the results depend on the processing

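Over alternatives other than leaving out a library, 1113 results of single genes kept their direction and their side of 0.05, 31 lost the call, 31 gained it and 5 reversed. Over fits with 1 library left out, 1569 kept both, 84 lost the call and 27 gained it. The 5 reversals came with dox libraries alone, where the untreated lines are no longer subtracted: CDK6 gave -0.48 in the PELO line at 48 h, and in the HBS1L line at 48 h CCND3 gave 0.11, CDK6 -0.53, CDKN2D 0.38 and RB1 -0.25. Genes called of the 10 in the HBS1L line beyond control were 3 at 48 h, against 1 with no TMM and 5 with dox libraries alone, and 1 to 3 with a library left out. At 96 h they were 0, against 1 with no filter, 1 with no TMM and 8 with dox libraries alone, and 0 to 2 with a library left out. The untreated HBS1L line at 96 h had 1, against 2 with no filter, 0 with the compared groups alone and 0 to 1 with a library left out. The change between times ranged from 4 to 7 in the control line (4 without replicate 2 with dox at 96 h) and from 3 to 5 in the HBS1L line (3 without replicate 2 of the untreated line at 96 h). Apart from the settings that leave samples or genes out, the cause was not tested.

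Genes called among all tested also moved by over 1.5 times. The HBS1L line beyond control had 799 at 48 h (1372 with the compared groups alone, 4791 with dox libraries alone, 484 and 512 without control replicate 3) and 2228 at 96 h (6185 with dox libraries alone, 1391 to 1484 without replicate 2 of 3 groups). The control line at 96 h had 1561 (614 with the compared groups alone, 481 to 992 without replicate 1 or 2 of the untreated or 1 or 3 of the dox libraries). The untreated HBS1L line at 96 h had 28 (46 with DESeq2, 95 with no filter, 17 with the compared groups alone, 12 to 17 without control replicate 2 or HBS1L replicate 1 or 3). Leaving out TMM moved the median of all genes by at most 0.10, in the comparison of PELO with HBS1L at 48 h. The direction of the calls depended more on this scaling. Of the genes called in the control line at 96 h, 51.8% were higher with TMM and 21.5% without it. In the HBS1L line beyond control at 48 h these shares were 36.5% and 57.6%, while in the control line at 48 h both were 54.3%. With a replicate block within each time, 3 calls of single genes were lost: CCND1 in the control line at 48 h (edgeR adjusted p = 0.0515), CDKN2C in the untreated PELO line at 48 h (0.0513) and CDKN1B in the change between times of the control line (0.0606). Replicates with the same number correlated between -0.19 and 0.17 in their deviations from the group means. With means of 3 libraries this cannot show whether such replicates shared a culture or preparation, and the labels do not say what the number means.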
